A study of Homo sapiens with 12 samples.

Results

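The BCL2 family sets the threshold for the mitochondrial pathway of apoptosis, and 10 of its genes were followed here among the 26485 genes in the files. They were taken by name: the anti-apoptotic BCL2, BCL2L1, BCL2L2 and MCL1, the BH3-only BCL2L11, PMAIP1, BBC3, BMF and BIK, and the effector BAK1. All 10 passed the filter on low counts, as did 14865 genes in all. RNA came from OVCAR8, a human ovarian cancer cell line, treated for 7 h with 150 nM EC359, with 100 nM trametinib, with both agents at these doses (combination), or with vehicle as control, with 3 libraries per condition and 12 in total. EC359 is an inhibitor of the leukemia inhibitory factor receptor and trametinib an inhibitor of the kinases MEK1 and MEK2. The comparisons asked how each agent and their combination altered these transcripts in a line with an activated RAS and RAF pathway. The labels do not say whether the 3 libraries of a condition came from separate cultures, so the p-values measure only the spread between these libraries.

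In a living cell, anti-apoptotic members hold the effectors BAK and BAX in check at the outer mitochondrial membrane. BH3-only proteins are sensors of stress that bind the groove of the anti-apoptotic members or engage the effectors directly, and effectors that are set free form pores through which cytochrome c leaves and caspases are switched on. Signaling through ERK is known to lower BIM, the product of BCL2L11, and the amounts of MCL-1 and NOXA protein are also set by rapid degradation, which transcript counts do not measure.

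Total counts lay between 24790392 and 32467283 per library, so that 3 counts, the upper limit that a count of 0 allows, equal 0.0924 to 0.121 CPM (counts scaled to a common library total). This limit covers counting error only. Of 11 markers of ovarian epithelial cancer, 6 passed the filter, among them PAX8 (73.7 to 122 CPM over the 12 libraries), KRT7, KRT8 and KRT18, while EMX2 and MECOM were at 0 in every library. SOX17, KRT19 and MUC16 reached at most 0.125, 0.0845 and 0.038 CPM. The summed level of the 11 markers was 4015 to 4097 CPM in control, 3971 to 4016 in EC359, 3582 to 3691 in trametinib and 3741 to 3892 in combination libraries. Most of that sum was KRT8 (1744 to 1962 CPM), KRT18 (780 to 1064) and KRT7 (877 to 1032), so it mainly follows these keratins. Of 11 markers of leukocytes, endothelium, blood, liver and fibroblasts, CD68 and COL1A1 passed the filter, and PTPRC, CD3E, HBB and DCN were at 0 in every library. Their summed level was 465 to 491 CPM in control, 278 to 293 in EC359, 563 to 576 in trametinib and 364 to 388 in combination libraries. Most of it was COL1A1 (219 to 525 CPM) and nearly all of the rest CD68 (47.9 to 60.6 CPM), and their part in the results below was not tested.

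The promoters of 4 members are shown, chosen after their values were seen: BBC3 and BCL2L11 held matches to the motifs searched and PMAIP1 and BCL2L1 held none. The sequences are RefSeq windows on GRCh38.p14 of up to 250 bases before the annotated start, written 5′ to 3′ on the strand of the gene, without bases that an annotated exon of the same gene covers. Capitals mark matches on either strand to GTAAACA (FOXO), TGACGTCA (CRE), TGAGTCA (AP-1), TGATGCAA (CHOP-ATF4 composite), CACGTG (E-box), TTTCGCGC and TTTGGCGC (E2F) or TTCNNNGAA (STAT).
BBC3, chr19:47232767-47232917, minus strand: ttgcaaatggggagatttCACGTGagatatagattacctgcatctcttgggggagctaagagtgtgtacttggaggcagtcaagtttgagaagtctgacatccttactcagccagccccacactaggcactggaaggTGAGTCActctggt
BCL2L11, chr2:111120664-111120913, plus strand: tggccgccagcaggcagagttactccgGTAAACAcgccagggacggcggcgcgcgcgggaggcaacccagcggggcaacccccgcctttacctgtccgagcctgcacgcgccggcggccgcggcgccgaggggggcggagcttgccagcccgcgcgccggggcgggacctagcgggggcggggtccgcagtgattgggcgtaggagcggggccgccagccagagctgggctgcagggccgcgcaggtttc
PMAIP1, chr18:59899746-59899947, plus strand: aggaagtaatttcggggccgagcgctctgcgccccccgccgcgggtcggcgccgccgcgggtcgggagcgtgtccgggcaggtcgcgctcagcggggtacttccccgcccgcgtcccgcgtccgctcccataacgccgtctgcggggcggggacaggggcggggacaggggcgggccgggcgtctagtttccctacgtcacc
BCL2L1, chr20:31723990-31724213, minus strand: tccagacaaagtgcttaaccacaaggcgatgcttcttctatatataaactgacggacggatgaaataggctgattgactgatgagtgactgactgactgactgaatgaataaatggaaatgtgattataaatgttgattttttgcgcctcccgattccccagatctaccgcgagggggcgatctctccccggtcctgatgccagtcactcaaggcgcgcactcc
The BBC3 window held an E-box at positions -232 to -227 and an AP-1 match at -113 to -107, counted from the start. The BCL2L11 window held a FOXO match at -223 to -217. Among 35116 promoter windows of 250 bases, 6.34% held the E-box, 4.2% the AP-1 letters and 2.98% the FOXO letters. The other motifs were at 1.65% (CRE), 0.772% (CHOP-ATF4 composite), 0.439% and 0.55% (E2F, in the order above) and 6.57% (STAT), and no match overlapped another in the 9 promoter entries of the 7 members that had one. BCL2L2, MCL1 and BIK had no promoter entry and were not searched. A match is a description of the letters, and binding was not measured.

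Compared to control, the combination raised 7 of the 10 transcripts and lowered 3 at an adjusted p-value under 0.05 (edgeR quasi-likelihood test, Benjamini-Hochberg over all genes tested). The background was wide, since 35.0% of all genes tested were higher and 34.7% lower in this comparison. At 2-fold or more, BBC3, PMAIP1, BMF and BCL2L11 were higher and BCL2L1 was lower, where 7.27% of all genes were higher and 5.87% lower. All 5 BH3-only transcripts among the 10 rose, as did MCL1 and BCL2L2, and BCL2L1, BAK1 and BCL2 fell. The median log2 fold change of the 10 was 0.61, beside -0.01 for all genes tested. Because the members were chosen with earlier results of these data known, their counts and medians describe the set and are no test. In RNA from whole cultures, a change in the number of cells with a transcript and a change in its level per cell cannot be told apart.

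EC359 alone raised 7 members and lowered 2 (BCL2L1 and BAK1), beside 30.8% higher and 30.3% lower among all genes tested. BBC3, PMAIP1, BMF and MCL1 were at least 2-fold higher, where 4.19% of all genes were, and no member was at least 2-fold lower, where 2.79% were. Trametinib alone raised 3 members (BMF, BBC3 and BCL2L11) and lowered 5 (PMAIP1, BCL2L1, BCL2, MCL1 and BAK1), beside 13.0% and 15.2% of all genes. BMF alone passed 2-fold (0.478% of all genes higher, 0.955% lower). The median log2 fold change of the members was 0.57 with EC359 and -0.09 with trametinib, and that of all genes was -0.01 and 0.00. The 3 comparisons share the control libraries.

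These values use TMM scaling. With library totals alone, the median of all genes moved to -0.15 with EC359, to -0.14 with the combination and to -0.16 in the combination compared to trametinib (log2). The share of calls that were higher then went from 50.4% to 31.8% with EC359, from 46.2% to 58.4% with trametinib, from 50.2% to 36.0% with the combination, and from 51.7% to 33.1% in the combination compared to trametinib. Among the members that passed the test, none changed direction with this scaling.

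**Figure D1:**
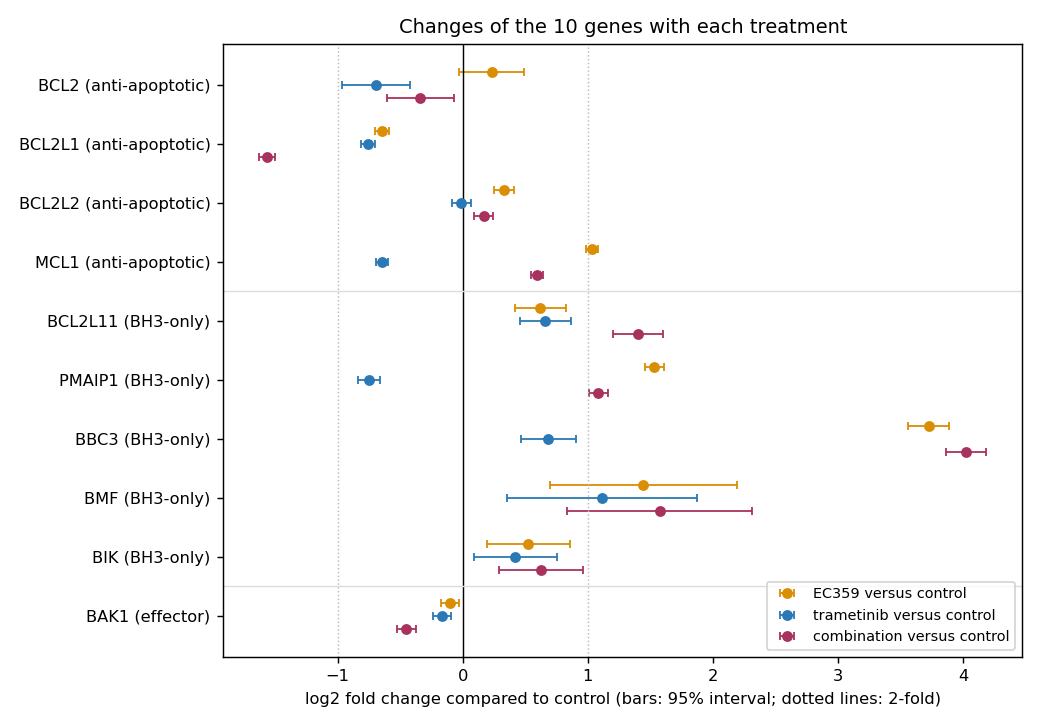
Log2 fold change compared to control (x axis) of the 10 genes (rows, by role) with EC359, trametinib and the combination; points are edgeR estimates from 3 libraries per condition, bars are 95% intervals, and dotted lines mark 2-fold. BBC3 lies farthest to the right, at 3.73 with EC359 and 4.02 with the combination, and BCL2L1 is left of 0 with every treatment.

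Among the anti-apoptotic members, MCL1 encodes a short-lived protein on which many tumor cells depend, and its gene lies at chr1:150574551-150579738 (minus strand, 3 exon records in the authors' hg38 annotation). MCL1 read 257, 254 and 256 CPM in the control libraries, 512, 527 and 528 with EC359, 164, 166 and 162 with trametinib, and 378, 386 and 391 with the combination. The 4 conditions did not overlap, with trametinib lowest, control next, then the combination, and EC359 highest. EC359 raised MCL1 2.04-fold (log2 1.03, SE 0.02, adjusted p = 2.8e-41), which became log2 0.90 with library totals and so under 2-fold. Trametinib lowered it 1.56-fold (log2 -0.65, SE 0.02, adjusted p = 1.3e-29), and the combination left it 1.51-fold above control (log2 0.59, SE 0.02, adjusted p = 1.2e-29). The combination was 1.36-fold below EC359 (adjusted p = 2.0e-23) and 2.36-fold above trametinib (adjusted p = 2.3e-44). MCL1 shares 2 exon bases with ADAMTSL4-AS1, which had 0 to 6 counts in a library.

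BCL2L1, which encodes BCL-XL, moved the other way from MCL1 with EC359 and the combination. Its gene is at chr20:31664458-31722853 (minus strand, 3 exon records). BCL2L1 read 171, 169 and 173 CPM in control, 110.2, 109 and 109 with EC359, 102, 101 and 101 with trametinib, and 56.4, 59.5 and 57.7 with the combination. Again no condition overlapped another, control being highest and the combination lowest. EC359 lowered BCL2L1 1.57-fold (log2 -0.65, SE 0.03, adjusted p = 2.0e-27) and trametinib lowered it 1.69-fold (log2 -0.76, SE 0.03, adjusted p = 4.8e-30). With both agents it was 2.96-fold below control (log2 -1.56, SE 0.03, adjusted p = 1.8e-44), 1.89-fold below EC359 alone (adjusted p = 2.9e-31) and 1.75-fold below trametinib alone (adjusted p = 2.1e-29). The long noncoding gene ABALON covers 930 exon bases of BCL2L1 on the opposite strand, and held 0 to 5 counts in a library in these strand-specific counts.

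BCL2L2, which encodes BCL-W, is at chr14:23306762-23311759 (plus strand, 4 exon records) and moved little. BCL2L2 read 51.8, 53.2 and 51.2 CPM in control, 64.3, 66.3 and 65.5 with EC359, 52.6, 49.3 and 52.9 with trametinib, and 57.8, 59.7 and 57.8 with the combination. The trametinib and control libraries overlapped, and the combination and EC359 stood apart above them. EC359 raised BCL2L2 1.26-fold (log2 0.33, SE 0.04, adjusted p = 9.2e-11), and the combination raised it 1.12-fold (log2 0.17, SE 0.04, adjusted p = 0.00018), a change that fell to log2 0.03 (adjusted p = 0.54) with library totals. With trametinib the log2 fold change was -0.01 (95% interval -0.09 to 0.07, adjusted p = 0.88).

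The combination was 1.12-fold below EC359 for BCL2L2 (adjusted p = 0.00038) and 1.13-fold above trametinib (adjusted p = 8.4e-05, and 0.78 with library totals). The readthrough gene BCL2L2-PABPN1 shares 661 exon bases with BCL2L2 on the same strand, or 18.1% of its exon length. BCL2L2 had 1298 to 1974 counts in a library, BCL2L2-PABPN1 5742 to 8206 and PABPN1 itself 5720 to 8322. No BCL2L2 value in the 12 libraries ended in 0.5, as values would where a read was split evenly between overlapping genes. With both genes added together, the difference between the combination and EC359 turned to log2 0.16 (adjusted p = 2.1e-07), but most of that sum came from BCL2L2-PABPN1, whose counts were close to those of PABPN1, and reads over exons of both genes may be counted in each. The sum therefore says little of BCL2L2 itself.

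BCL2, the founding member of the family, was expressed at a low level and is at chr18:63123346-63319380 (minus strand, 3 exon records). BCL2 read 5.71, 5.61 and 7.06 CPM in control, 7.01, 6.61 and 8 with EC359, 4.31, 3.87 and 3.18 with trametinib, and 4.11, 5.81 and 4.62 with the combination, from 98 to 240 counts in a library. The trametinib libraries were all below the control libraries, while trametinib overlapped the combination, the combination overlapped control, and control overlapped EC359. Trametinib lowered BCL2 1.62-fold (log2 -0.70, SE 0.13, adjusted p = 3.9e-05), and with EC359 the log2 fold change was 0.23 (95% interval -0.03 to 0.49, adjusted p = 0.12). The combination was 1.26-fold below control (log2 -0.34, SE 0.13, adjusted p = 0.021), 1.48-fold below EC359 (adjusted p = 0.00031) and 1.28-fold above trametinib (log2 0.36, adjusted p = 0.020).

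Single libraries decided several of the BCL2 calls. The difference between the combination and control was no longer called without control replicate 3 (log2 -0.22, adjusted p = 0.19), combination replicate 1 (-0.23, adjusted p = 0.16) or combination replicate 3 (-0.30, adjusted p = 0.076). That between the combination and trametinib was not called without trametinib replicate 3 (0.24, adjusted p = 0.15), without combination replicate 2 (0.21, adjusted p = 0.22), or with library totals (0.19, adjusted p = 0.21). Without control replicate 3, the rise with EC359 was called (0.35, adjusted p = 0.039).

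**Figure D2:**
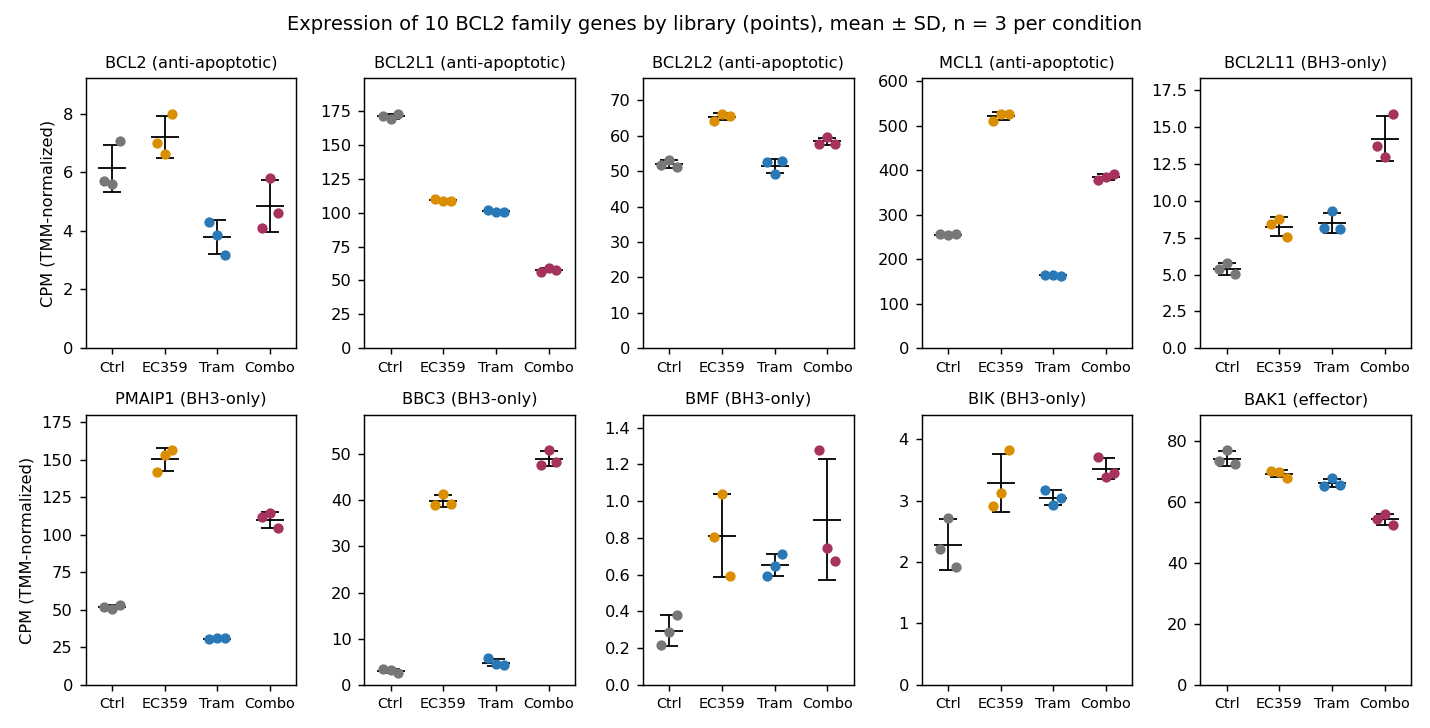
TMM-normalized CPM (y axis, from 0, own scale per gene) of each gene in the control, EC359, trametinib and combination libraries; points are libraries, and bars are the mean and SD of 3. MCL1 and PMAIP1 share the order trametinib, control, combination, EC359 from low to high, while BCL2L1 is highest in control and lowest in the combination.

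Among the BH3-only members, BBC3 changed most. It encodes PUMA, a BH3-only protein that can bind every anti-apoptotic member, and is at chr19:47220822-47232766 (minus strand, 5 exon records). BBC3 read 3.32, 3.14 and 2.62 CPM in control, 39.0, 41.4 and 39.2 with EC359, 5.77, 4.48 and 4.19 with trametinib, and 47.7, 50.8 and 48.3 with the combination. The conditions did not overlap, and the 3 control libraries held 89 to 99 counts against 924 to 1232 with EC359. EC359 raised BBC3 13.3-fold (log2 3.73, SE 0.08, adjusted p = 3.5e-40), trametinib 1.61-fold (log2 0.68, SE 0.11, adjusted p = 1.2e-06) and the combination 16.3-fold (log2 4.02, SE 0.08, adjusted p = 3.8e-42). The combination exceeded EC359 by 1.23-fold (log2 0.30, SE 0.06, adjusted p = 2.5e-05) and trametinib by 10.1-fold (adjusted p = 9.4e-40). The promoter shown above for BBC3, with its AP-1 and E-box letters, belongs to a RefSeq start inside the gene as counted here. That of BCL2L1 belongs to a start outside the counted gene. Another BCL2L1 entry, with its start at chr20:31722868, kept 20 bases outside exons and is not shown.

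PMAIP1 encodes NOXA, which binds mainly MCL-1, and is at chr18:59899960-59904306 (plus strand, 2 exon records). PMAIP1 read 52.0, 50.7 and 53.4 CPM in control, 142, 153 and 156 with EC359, 30.8, 31.0 and 30.9 with trametinib, and 112, 115 and 104 with the combination. The order was that of MCL1, with no overlap between conditions. EC359 raised PMAIP1 2.89-fold (log2 1.53, SE 0.04, adjusted p = 1.9e-38) and trametinib lowered it 1.69-fold (log2 -0.75, SE 0.04, adjusted p = 1.5e-20). The combination was 2.12-fold above control (log2 1.08, SE 0.04, adjusted p = 3.5e-31), which became log2 0.94 and so under 2-fold with library totals. It was 1.37-fold below EC359 (adjusted p = 2.6e-16) and 3.57-fold above trametinib (adjusted p = 6.6e-40).

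BCL2L11 encodes BIM, which activates BAX and BAK and binds all anti-apoptotic members, and is at chr2:111120914-111168445 (plus strand, 12 exon records). BCL2L11 read 5.36, 5.80 and 5 CPM in control, 8.45, 8.76 and 7.57 with EC359, 8.15, 9.31 and 8.11 with trametinib, and 13.7, 13 and 15.9 with the combination. The single agents overlapped each other, above control and below the combination. EC359 raised BCL2L11 1.54-fold (log2 0.62, SE 0.10, adjusted p = 5.1e-07) and trametinib 1.58-fold (log2 0.66, SE 0.10, adjusted p = 3.9e-07). The combination raised it 2.64-fold (log2 1.40, SE 0.10, adjusted p = 7.0e-19), which was 1.72-fold above EC359 (adjusted p = 6.4e-10) and 1.67-fold above trametinib (adjusted p = 8.1e-10). At an adjusted p under 0.05, BBC3 and BCL2L11 were the members called higher in the combination than in each single agent. BMF and BIK also had their highest mean with the combination, but their differences from the single agents were not called. The share of all genes called above both single agents was not worked out.

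BMF and BIK rested on few counts, 6 to 32 and 62 to 102 in a library. BMF encodes a BH3-only protein known for its link to the cytoskeleton, and is at chr15:40087891-40108884 (minus strand, 6 exon records). BMF read 0.214, 0.285 and 0.383 CPM in control, 0.803, 1.04 and 0.591 with EC359, 0.593, 0.646 and 0.714 with trametinib, and 1.28, 0.745 and 0.676 with the combination. All treated libraries were above all control libraries, and the treated conditions overlapped each other. BMF rose by log2 1.44 (SE 0.37, adjusted p = 0.00062) with EC359, by 1.11 (SE 0.38, adjusted p = 0.020) with trametinib and by 1.57 (SE 0.37, adjusted p = 0.00015) with the combination. The rise with trametinib was not called without control replicate 1 (0.95, adjusted p = 0.093), control replicate 2 (1.08, adjusted p = 0.059) or trametinib replicate 3 (1.04, adjusted p = 0.069). The combination differed from EC359 by 0.13 (95% interval -0.52 to 0.78) and from trametinib by 0.46 (-0.20 to 1.12), neither past the threshold.

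BIK encodes a BH3-only protein of the endoplasmic reticulum, at chr22:43110748-43129712 (plus strand, 5 exon records). BIK read 2.21, 2.73 and 1.91 CPM in control, 2.92, 3.12 and 3.82 with EC359, 3.18, 2.92 and 3.05 with trametinib, and 3.71, 3.39 and 3.46 with the combination. The control libraries were the lowest, and the treated conditions overlapped in neighboring order. BIK rose by log2 0.53 (SE 0.17, adjusted p = 0.0054) with EC359 and by 0.62 (SE 0.17, adjusted p = 0.00081) with the combination, and with trametinib the difference of 0.42 missed the threshold (SE 0.17, adjusted p = 0.051). The EC359 call was lost without control replicate 3 (0.41, adjusted p = 0.055) or EC359 replicate 3 (0.41, adjusted p = 0.059), and the trametinib difference was called without control replicate 2 (0.57, adjusted p = 0.021). The trametinib difference in BIK was also called with library totals (0.45, adjusted p = 0.037), with DESeq2 size factors in edgeR (0.42, adjusted p = 0.049) and with at least 10 counts in every library (0.42, adjusted p = 0.047). DESeq2 itself did not call it (0.43, adjusted p = 0.088), nor did edgeR without a filter (0.42, adjusted p = 0.071). Fits on the compared groups alone (0.42, adjusted p = 0.052) and with a replicate block (0.42, adjusted p = 0.058) did not call it either. The combination differed from EC359 by 0.10 (95% interval -0.23 to 0.43) and from trametinib by 0.20 (-0.12 to 0.53), again short of the threshold.

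BAK1, the effector of the set, encodes BAK, a pore-forming protein of the outer mitochondrial membrane, and is at chr6:33572546-33580293 (minus strand, 6 exon records). BAK1 read 73.5, 77.0 and 72.4 CPM in control, 70.1, 69.8 and 68.0 with EC359, 65.3, 67.9 and 65.6 with trametinib, and 54.4, 56.2 and 52.3 with the combination. The conditions did not overlap, and the gap between EC359 and trametinib was narrow. The combination lowered BAK1 1.37-fold (log2 -0.45, SE 0.04, adjusted p = 5.4e-16), 1.28-fold below EC359 (adjusted p = 2.5e-11) and 1.22-fold below trametinib (adjusted p = 2.8e-09). Trametinib lowered it 1.12-fold (log2 -0.17, SE 0.04, adjusted p = 0.00024). The fall with EC359, of log2 -0.10 (SE 0.04, adjusted p = 0.015), was not called without control replicate 2 (-0.07, adjusted p = 0.12) or EC359 replicate 3 (-0.09, adjusted p = 0.073).

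Compared to EC359 alone, the combination thus raised 2 members (BCL2L11 and BBC3) and lowered 6 (BCL2, BCL2L1, BCL2L2, MCL1, PMAIP1 and BAK1), beside 24.1% higher and 25.2% lower among all genes tested. Compared to trametinib alone, it raised 6 (MCL1, PMAIP1, BBC3, BCL2L11, BCL2 and BCL2L2) and lowered 2 (BCL2L1 and BAK1), beside 35.3% and 32.9%. The median log2 difference of the 10 was -0.26 compared to EC359 and 0.41 compared to trametinib, and that of all genes was 0.00 in both. In each comparison with control, the libraries of the compared conditions did not overlap for 9 of the 10 members. The exception was BCL2 for EC359 and for the combination, and BCL2L2 for trametinib. Of all genes tested, 64.7% did not overlap between EC359 and control, 40.1% between trametinib and control, and 71.8% between the combination and control.

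The interaction term asked whether the combination departed from the summed log2 effects of EC359 and trametinib given singly, with positive values above the sum. Of the 10 members, 2 lay above the sum (MCL1 and PMAIP1) and 4 below it (BCL2L1, BCL2L2, BBC3 and BAK1), beside 14.4% above and 15.9% below among all genes tested. PMAIP1 reached log2 1.08 where the sum was 0.78 (interaction 0.30, SE 0.06, adjusted p = 2.4e-05), and MCL1 reached 0.59 where the sum was 0.39 (interaction 0.21, SE 0.03, adjusted p = 2.6e-06). Both rose with EC359 and fell with trametinib.

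BCL2L1 fell by 1.56 where the sum was -1.41 (interaction -0.16, SE 0.04, adjusted p = 0.0039), and BAK1 fell by 0.45 where the sum was -0.27 (interaction -0.19, SE 0.05, adjusted p = 0.0052). BBC3 reached 4.02 where the sum was 4.41 (interaction -0.39, SE 0.12, adjusted p = 0.013), a call lost without control replicate 3 (-0.29, adjusted p = 0.10) or trametinib replicate 1 (-0.23, adjusted p = 0.19). The BCL2L2 interaction of -0.15 (adjusted p = 0.030) was lost without control replicates 1 or 3, EC359 replicates 2 or 3, trametinib replicates 1 or 3, or combination replicates 1 or 3 (-0.15 to -0.13, adjusted p = 0.052 to 0.080). With BCL2L2-PABPN1 added it read 0.16 (adjusted p = 0.00015), with the same limit on that sum. For BCL2L11 the combination and the sum differed by 0.12 (95% interval -0.16 to 0.40), and the intervals for BCL2 (-0.25 to 0.51), BMF (-1.99 to 0.02) and BIK (-0.79 to 0.15) also included 0.

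**Figure D3:**
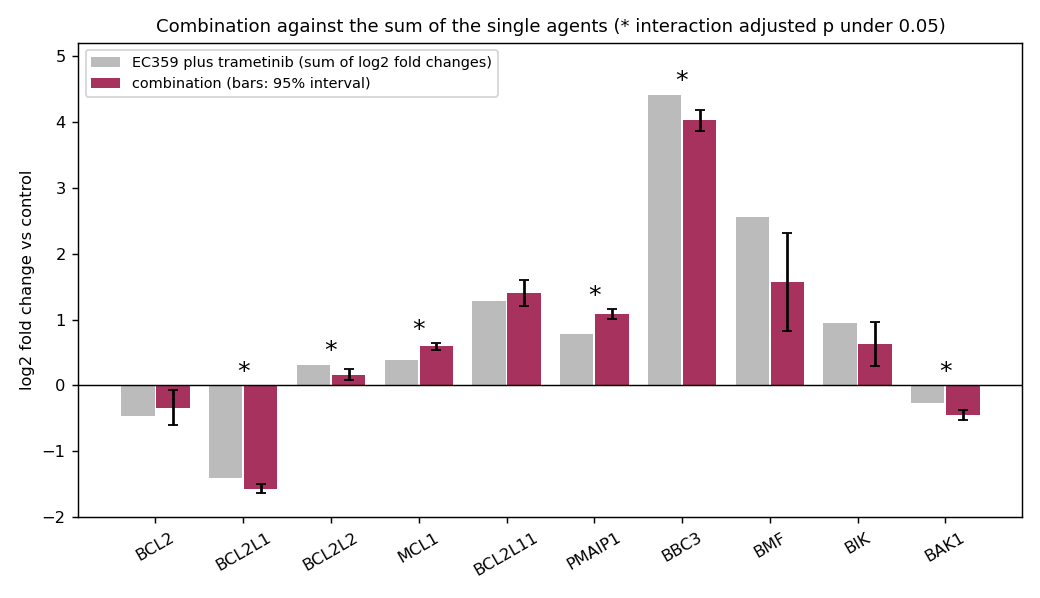
Log2 fold change compared to control (y axis) expected from adding the single agents (gray) and measured with the combination (purple, 95% interval, n = 3 libraries per condition); an asterisk marks an interaction with adjusted p under 0.05. PMAIP1 and MCL1 exceed the sum by 0.30 and 0.21, and BBC3 falls short of it by 0.39.

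Levels of different genes were compared per kilobase of exon. In control, BCL2L1 (66.9 ± 0.8 CPM per kilobase, SD, n = 3) and MCL1 (62.6 ± 0.4) led the set, followed by BAK1 (33.9 ± 1.1), PMAIP1 (26.9 ± 0.7) and BCL2L2 (14.2 ± 0.3). BIK (2.40 ± 0.43), BBC3 (1.44 ± 0.17), BCL2 (0.93 ± 0.12), BCL2L11 (0.87 ± 0.06) and BMF (0.06 ± 0.02) were far lower. With the combination, MCL1 (94.3 ± 1.6) was first and PMAIP1 (56.9 ± 2.8) second, ahead of BAK1 (24.8 ± 0.9), BBC3 (23.4 ± 0.8) and BCL2L1 (22.6 ± 0.6).

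Summed over the 4 anti-apoptotic members, the level was 145 ± 0.9 CPM per kilobase in control, 190 ± 2.1 with EC359, 94.2 ± 0.5 under trametinib and 134 ± 2.2 with the combination (SD, n = 3). MCL1 made up 43.3% of this sum in control, 67.5% with EC359, 42.5% under trametinib and 70.6% with the combination. BCL2L1 made up 46.2%, 22.5%, 41.9% and 16.9% in the same order. The anti-apoptotic sum with the combination was thus below control, while its makeup had moved from BCL2L1 to MCL1.

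The 5 BH3-only members summed to 31.7 ± 0.1 CPM per kilobase in control, 102 ± 4.6 with EC359, 23.0 ± 0.4 under trametinib and 86.5 ± 3.0 with the combination. This was 21.9% of the anti-apoptotic sum in control, 53.7% with EC359, 24.4% under trametinib and 64.7% with the combination. PMAIP1 supplied most of it (84.9% in control, 76.4% with EC359, 69.5% under trametinib and 65.8% with the combination), and the share of BBC3 went from 4.57% in control to 18.7%, 9.99% and 27.0%. These are sums of transcript levels over the 10 members only, reported with no test. BH3-only genes outside the 10, such as BID, BAD and HRK, are left out. Without scaling by length, BID averaged 53.0 CPM in control and 46.8 with the combination, and BAD 78 and 80.1. On that scale PMAIP1, the largest of the 5, averaged 52.0 and 110 CPM. The percentages would differ with BID and BAD included, by an amount that was not worked out. BID was lower with the combination (log2 -0.18), BAD was not called (0.04), and HRK was higher (3.59).

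**Figure D4:**
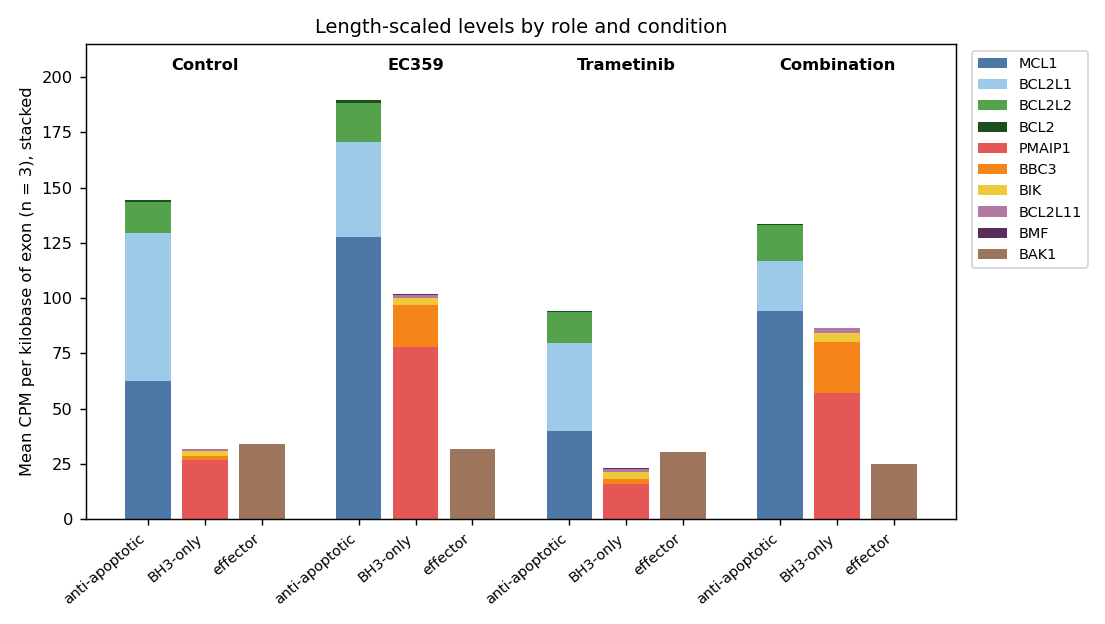
Mean CPM per kilobase of exon (y axis, stacked by gene, n = 3 libraries) of the anti-apoptotic, BH3-only and effector members in each condition. The BH3-only stack stands at 31.7 in control and 86.5 with the combination, and MCL1 takes a larger part of the anti-apoptotic stack with EC359 and with the combination.

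For the 3 members with the widest range of levels, the genes most alike over the 12 libraries were sought by Pearson correlation of log2 CPM. These are descriptions over 4 conditions, since the libraries of a condition lie close together, and they carry no test. BBC3 was most like GCNT2 (r = 0.9986), CHMP1B (0.9981) and PNRC1 (0.9973), and 1023 genes exceeded 0.95. PNRC1 averaged 19.8 CPM in control, 208 with EC359, 33.9 under trametinib and 269 with the combination. PMAIP1 was most like ITGA5 (0.9958), RAP2B and MAFF (both 0.9937), with 367 genes over 0.95, and MAFF averaged 66.8, 461, 17.3 and 309 CPM in the same order. MCL1 was most like UBALD2 (0.9984), IRF2BP2 (0.9973) and ERRFI1 (0.9964), with 264 genes over 0.95. Within the set, MCL1 and PMAIP1 followed each other (r = 0.993), as did BCL2L1 and BAK1 (0.958), while BCL2L11 ran opposite to BCL2L1 (-0.981) over the 12 libraries.

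Beyond the 10, 13 further BCL2 family genes were listed and 11 of them were tested. With the combination, 3 rose and 6 fell (median log2 fold change -0.16), with EC359 3 rose and 3 fell (-0.02), and with trametinib none rose and 3 fell (-0.06), all against the shares of all genes given above. HRK, a BH3-only gene best known from neurons, averaged 0.403 ± 0.060 CPM in control, 2.25 ± 0.08 with EC359, 0.559 ± 0.133 under trametinib and 4.91 ± 0.60 with the combination (SD, n = 3). HRK rose 12-fold with the combination (log2 3.59, SE 0.23, adjusted p = 7.8e-21) and 5.52-fold with EC359 (log2 2.46, SE 0.24, adjusted p = 1.6e-13). BCL2A1, an anti-apoptotic member, fell by 1.61 with the combination (SE 0.29, adjusted p = 1.7e-06) and by 1.48 with trametinib (SE 0.28, adjusted p = 2.0e-05) on the log2 scale. Its level was low, at 1.525 ± 0.255 CPM in control, 0.553 ± 0.219 under trametinib and 0.494 ± 0.122 with the combination. BCL2L10 fell by 1.39 with the combination (SE 0.42, adjusted p = 0.0027) from 0.709 CPM in control, and BNIP3L, a mitophagy receptor, rose 2.64-fold with EC359 (log2 1.40, SE 0.03, adjusted p = 3.2e-40) and 1.98-fold with the combination (log2 0.98, SE 0.03, adjusted p = 2.0e-32).

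Downstream of the mitochondrion, 18 genes for cytochrome c, the apoptosome, caspases, their inhibitors and membrane channels were all tested. With the combination 6 rose and 7 fell (median -0.06), with EC359 8 rose and 5 fell (0.05), and with trametinib 3 rose and 5 fell (-0.01). Among all genes tested, 35.0% rose and 34.7% fell with the combination, 30.8% and 30.3% with EC359, and 13.0% and 15.2% with trametinib. BIRC3, which encodes the ubiquitin ligase cIAP2, was the member of this list past 2-fold, and rose 2.79-fold with EC359 (log2 1.48, SE 0.07, adjusted p = 4.9e-27). BIRC3 fell by 0.78 with trametinib (SE 0.08, adjusted p = 1.5e-12) and by 0.26 with the combination (SE 0.07, adjusted p = 0.0019) on the log2 scale, so the combination was below the sum of the agents (interaction -0.95, SE 0.10, adjusted p = 1.2e-10).

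Of the 11 transcription factors reported here that are known to act on promoters of BCL2 family genes, 10 rose with the combination (median 1.07). With EC359 10 rose (0.78), and with trametinib 4 rose and 2 fell (0.12). Among all genes tested, 35.0% rose with the combination and 30.8% with EC359, and 13.0% rose and 15.2% fell with trametinib. ATF3, a stress-induced factor, went from 3.29 ± 0.44 CPM in control to 85.3 ± 3.4 with EC359, 8.04 ± 0.68 under trametinib and 183 ± 3.0 with the combination (log2 5.79, SE 0.06, adjusted p = 1.4e-59). JUN rose by 3.37 with EC359 (SE 0.02, adjusted p = 7.4e-67) and by 3.60 with the combination (SE 0.02, adjusted p = 3.3e-68) on the log2 scale, and its AP-1 partner FOS rose by 4.89 with EC359 (SE 0.11, adjusted p = 4.6e-22) and by 3.26 with the combination (SE 0.12, adjusted p = 9.1e-18), and fell by 2.77 with trametinib (SE 0.27, adjusted p = 1.5e-08). FOXO3 rose 3-fold with EC359 (log2 1.59, SE 0.05, adjusted p = 2.2e-34) and 3.54-fold with the combination (log2 1.82, SE 0.05, adjusted p = 8.5e-38), and with trametinib its log2 fold change was 0.09 (SE 0.06, adjusted p = 0.29). The list of factors was also chosen with earlier results of these data known, so its counts are a description. Whether any of these factors acted on the members was not tested.

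**Figure D5:**
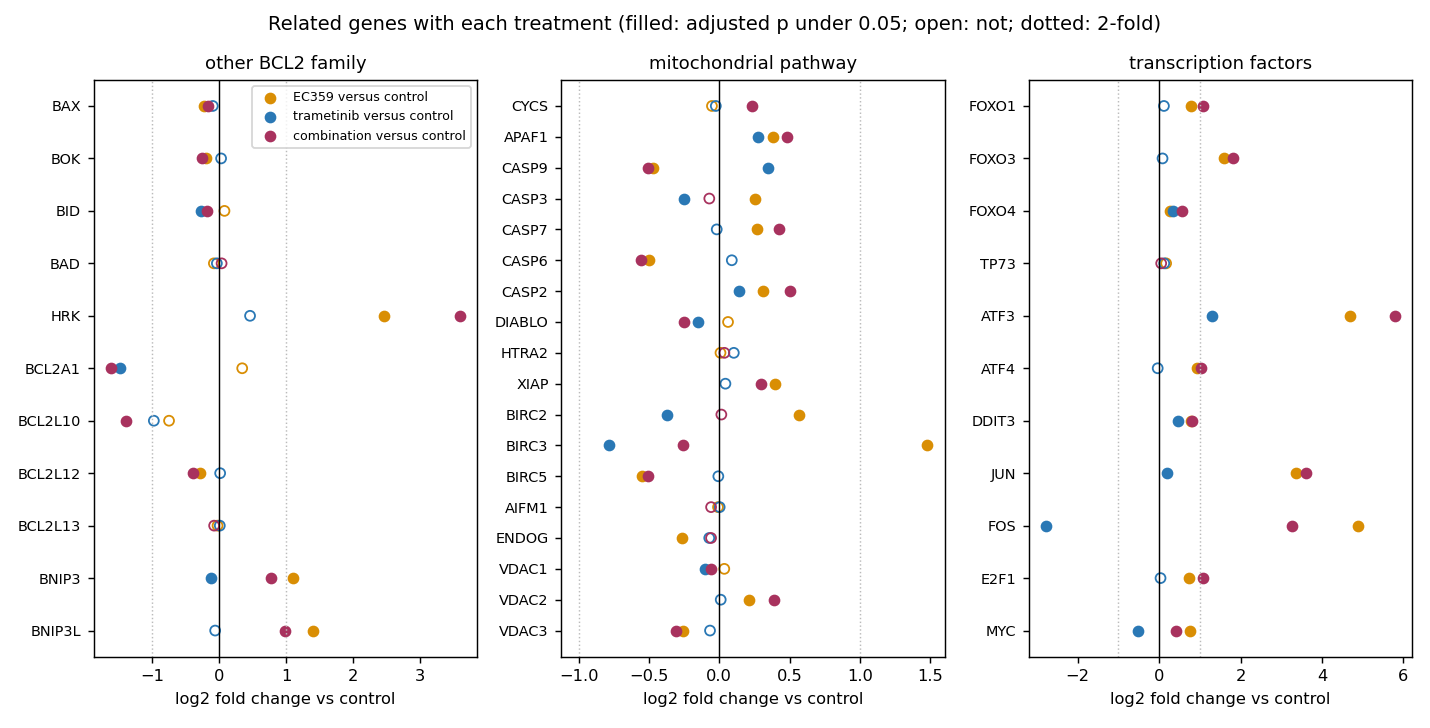
Log2 fold change compared to control (x axis) of the other BCL2 family genes, genes downstream of the mitochondrion and transcription factors with EC359, trametinib and the combination; filled points passed an adjusted p of 0.05 and open points did not, and dotted lines mark 2-fold. HRK at 3.59 and ATF3 at 5.79 with the combination lie farthest to the right in their lists.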

How the data were processed

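OVCAR8 RNA was sequenced in 12 libraries, 3 for each of 4 conditions. The authors deposited estimated counts per gene, 1 library per file, not normalized: per the file headers, featureCounts 1.5.0-p1 was run on paired, reverse-stranded reads, and reads with several placements were counted as fractions. Genome build hg38, HISAT2 and bcl2fastq come from the submitters' processing notes, which give no versions used here. Between 12.4% and 15.1% of values in a library were not whole, so they were rounded. In R 4.3.3, edgeR 4.0.16 kept 14865 of 26485 genes after filterByExpr (count 10 and total 15 as minimums), and 6337 were at 0 throughout. The TMM factors spanned 0.947 to 1.06. A robust quasi-likelihood model over the 4 conditions (biological coefficient of variation 3.95%) gave each contrast and the interaction, with Benjamini-Hochberg adjustment over all genes tested. Calls needed an adjusted p-value under 0.05, and 2-fold where stated.

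The script was tested on simulated data. CPM used TMM-scaled totals, and CPM per kilobase the exon length in the files. The 10 members were all named. From each further list, up to 4 genes were named that passed 0.05 and 2-fold in a comparison with control, the largest change in the combination first. A listed transcription factor is not reported here, and its list is counted without it. The members and lists were chosen with earlier results of these data known. Promoters came from RefSeq and exons from the files and GENCODE. Alternatives were other normalizations and filters, DESeq2 1.42.0, glmTreat at 1.5-fold, a replicate block, fits on the compared groups alone, each library left out, and BCL2L2 added to its readthrough gene.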

Additional observations from a re-analysis of the deposited data

Results flagged for a closer look

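For 6 members the effect of 1 agent differed with and without the other by the interaction term of the edgeR quasi-likelihood model (Benjamini-Hochberg adjusted over all genes tested). Of all genes tested, 14.4% lay above the sum of the single agents and 15.9% below it by the same rule. On the log2 scale, PMAIP1 lay 0.30 above the sum of the single agents (adjusted p = 2.4e-05) and MCL1 0.21 above it (adjusted p = 2.6e-06). The interaction was -0.39 for BBC3 (adjusted p = 0.013), -0.19 for BAK1 (adjusted p = 0.0052), -0.16 for BCL2L1 (adjusted p = 0.0039) and -0.15 for BCL2L2 (adjusted p = 0.030). The BBC3 and BCL2L2 calls were lost in some fits with single libraries left out, and a test against 1.5-fold called none of the 6. Groups of 3 libraries were too small for the search for outlying libraries.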

How the results depend on the processing

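Across the alternatives to the main settings, 890 values of the 10 members were recomputed; 820 kept their direction and side of the threshold, 57 were no longer called, 5 became called and 8 changed sign. A test against 1.5-fold (glmTreat) called 4 members higher and 1 lower with EC359, 0 higher and 2 lower with trametinib (0 at 2-fold), 4 higher and 1 lower with the combination, 0 higher and 1 lower in the combination compared to EC359, 3 higher and 1 lower compared to trametinib, and 0 and 0 for the interaction; its own construction asks for a larger change. For the 1.5-fold test the share of all genes called was not worked out, so its member counts stand without a background. A minimum of 10 counts in every library dropped BMF, which left 0 members at 2-fold with trametinib. With single libraries left out, the members past 2-fold with trametinib numbered 0 to 1 (0 without control replicates 1 or 2 or trametinib replicate 3), those lower with EC359 1 to 2 (1 without control replicate 2 or EC359 replicate 3) and those below the sum 2 to 4 (2 without control replicate 3 or trametinib replicate 1). Over the same fits, BCL2L2 with trametinib ranged from -0.029 to 0.019, BMF in the combination compared to EC359 from -0.20 to 0.36, and the BCL2 interaction from -0.024 to 0.23 (log2). BCL2L2 with trametinib was 0.014 with library totals, and with BCL2L2-PABPN1 added it read 0.16 for both the combination compared to EC359 and the interaction, in a sum made up mostly of the readthrough gene; apart from these last values, the sign changes were of differences that were not called. The replicate numbers did not pair the libraries: correlations of same-numbered libraries across conditions were -0.067 to 0.03 over 18 pairs, and 1 of 12 libraries correlated best with its own number. With the number as a replicate block, 7 members were higher and 3 lower with the combination as before, no member call changed, and calls over all genes in that comparison went from 10353 to 10304. Low counts limit BMF and BIK, whose intervals were the widest among the members.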
